A study of Mus musculus with 48 samples.

Results

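The equal strong regions are stretches of chromatin that were open to a similar, high degree in iNKT1, iNKT2 and iNKT17 cells. They were chosen from the ATAC-seq table of the study, which gives read counts over 54524 regions. Counts were divided by the library total and expressed per 1000000 counts (CPM), and the 2 libraries of each sublineage were averaged. A region was kept if it was at most 10000 bp wide, if all 3 sublineage means were at least 40 CPM, and if the highest mean was at most 1.3 times the lowest. The rule kept 2803 regions, 5.14% of the table and 52.9% of the 5301 regions that met the width and level conditions. The other 2498, which met both conditions but differed by more than 1.3 times, are called unequal strong regions here. Accessibility chose the regions, so their accessibility values are given as a description without a test.

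The series holds 48 samples and concerns invariant natural killer T (iNKT) cell subsets in a mouse model of graft-versus-host disease. The groups used here are iNKT1, iNKT2 and iNKT17 cells sorted from the thymus of FVB/N mice, with 2 ATAC-seq and 2 RNA-seq libraries each, and FVB/N CD4 and CD8 conventional T cells from spleen and peripheral lymph nodes taken before transplantation, with 3 RNA-seq libraries each. No genotype other than the strain is given for these groups, and the age of the mice behind these libraries is not given in the sources used here. Nothing says that the libraries of a group came from separate animals. The p-values below therefore rest on a spread between libraries that may be technical only.

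iNKT cells are T cells with a nearly fixed T cell receptor that recognise glycolipids presented by CD1d. In the thymus they divide into sublineages that differ in their transcription factors, such as T-bet in iNKT1 and high PLZF and GATA3 in iNKT2, and in the cytokines they produce. ATAC-seq measures how readily a transposase reaches the DNA. Regions that are open in every cell type are in general often promoters of genes for basic cell functions, many of them rich in CpG, whereas lineage genes are more often controlled by distal enhancers.

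Of the regions, 6 promoters are shown to give the range from strong housekeeping and immune promoters to promoters whose gene differed in RNA. Each sequence is the 250 bases before the RefSeq transcription start in GRCm38.p6, the mm10 assembly of the C57BL/6J strain, written in the direction of transcription. FVB/N sequence was not used here, and H2-D1 in particular differs between strains. Capitals mark matches, on either strand, to the ETS letters CCGGAAG, the SP/KLF letters GGGCGG, the NFY letters CCAAT, the CRE letters TGACGTCA and the TATA box letters TATAAA. H2-D1, a classical MHC class I gene, had the most accessible equal promoter, and Desi2 ranked among the next. Hnrnpa2b1 and Srsf2 encode splicing factors. Ptpn22, a phosphatase that restrains T cell receptor signalling, and Pi4k2a, a phosphatidylinositol kinase, had RNA that differed between sublineages.
H2-D1, chr17:35262844-35263093, plus strand: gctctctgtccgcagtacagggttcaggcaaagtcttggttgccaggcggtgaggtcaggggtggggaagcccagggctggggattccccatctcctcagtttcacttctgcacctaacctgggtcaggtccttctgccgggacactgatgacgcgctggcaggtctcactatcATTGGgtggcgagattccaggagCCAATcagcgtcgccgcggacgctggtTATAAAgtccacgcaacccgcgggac
Desi2, chr1:178187167-178187416, plus strand: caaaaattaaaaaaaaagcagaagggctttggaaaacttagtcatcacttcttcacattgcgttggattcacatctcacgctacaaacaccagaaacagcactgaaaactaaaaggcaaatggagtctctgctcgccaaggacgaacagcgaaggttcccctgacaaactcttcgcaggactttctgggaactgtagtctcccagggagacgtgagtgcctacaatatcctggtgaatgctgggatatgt
Hnrnpa2b1, chr6:51469895-51470144, minus strand: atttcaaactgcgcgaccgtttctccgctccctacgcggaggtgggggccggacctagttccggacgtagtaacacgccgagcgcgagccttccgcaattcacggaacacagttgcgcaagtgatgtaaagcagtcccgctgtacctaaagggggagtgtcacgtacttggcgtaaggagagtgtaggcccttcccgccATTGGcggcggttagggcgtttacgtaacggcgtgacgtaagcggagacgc
Srsf2, chr11:116853095-116853344, minus strand: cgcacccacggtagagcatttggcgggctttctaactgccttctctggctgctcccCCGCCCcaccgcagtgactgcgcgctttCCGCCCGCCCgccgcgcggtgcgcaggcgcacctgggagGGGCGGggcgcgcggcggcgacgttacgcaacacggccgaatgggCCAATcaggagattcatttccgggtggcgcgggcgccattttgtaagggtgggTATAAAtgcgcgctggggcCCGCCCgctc
Ptpn22, chr3:103859545-103859794, plus strand: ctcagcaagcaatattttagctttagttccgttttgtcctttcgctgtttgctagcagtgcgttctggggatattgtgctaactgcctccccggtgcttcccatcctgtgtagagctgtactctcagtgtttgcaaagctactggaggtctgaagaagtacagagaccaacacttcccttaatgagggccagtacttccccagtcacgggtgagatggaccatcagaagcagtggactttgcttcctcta
Pi4k2a, chr19:42090185-42090434, plus strand: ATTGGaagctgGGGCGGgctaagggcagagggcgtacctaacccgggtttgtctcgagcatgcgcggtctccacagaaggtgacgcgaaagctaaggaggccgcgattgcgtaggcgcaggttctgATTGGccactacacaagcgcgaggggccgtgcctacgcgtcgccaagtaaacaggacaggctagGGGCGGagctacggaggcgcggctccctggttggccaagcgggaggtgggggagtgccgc
The H2-D1 window held 14 CpG, 2 NFY matches and 1 TATA box match, and its GC content was 60.8%. The Srsf2 window held 33 CpG and 5 SP/KLF matches at 69.6% GC, and the Pi4k2a window 24 CpG, 2 SP/KLF and 2 NFY matches at 65.2% GC. By contrast, the Ptpn22 window held 5 CpG at 49.2% GC and the Desi2 window 7 CpG at 45.2% GC, and neither had a match to any of the 5 motifs. A match is a string of letters and not a shown binding site.

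Most equal strong regions lay at promoters. RefSeq starts could be compared on all chromosomes except 18, whose 46 members were not analysed for location. Of the 2757 located members, 2181 (79.1%, exact binomial 95% interval 77.5 to 80.6) lay within 1000 bp of a start, and 2069 (75.0%) contained one. The share was 73.1% (71.3 to 74.9) in unequal strong regions, 20.8% in regions below the level condition and 26.2% in all regions up to the width limit. Regions are not replicates, and the intervals cover counting error only.

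Within the strong regions, the promoter share changed little around the 1.3 limit and fell where sublineages differed most. It was 81.3% where the highest mean was up to 1.1 times the lowest, 79.8% from 1.1 to 1.2 and 76.8% from 1.2 to 1.3. Just beyond the limit, from 1.3 to 1.5, it was 78.1%. It fell to 73.5% from 1.5 to 2, to 51.3% from 2 to 4 and to 7.14% in the 28 located regions above 4. All 31 regions above 4 had a median width of 88 bp and a median level of 301.5 CPM. The median level in the other ranges ran from 63.9 to 84.8 CPM. With TMM-scaled library sizes, a scaling that centres most regions, the shares were 77.7% in equal and 75.9% in unequal strong regions, so that the gap between them was smaller.

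**Figure D1:**
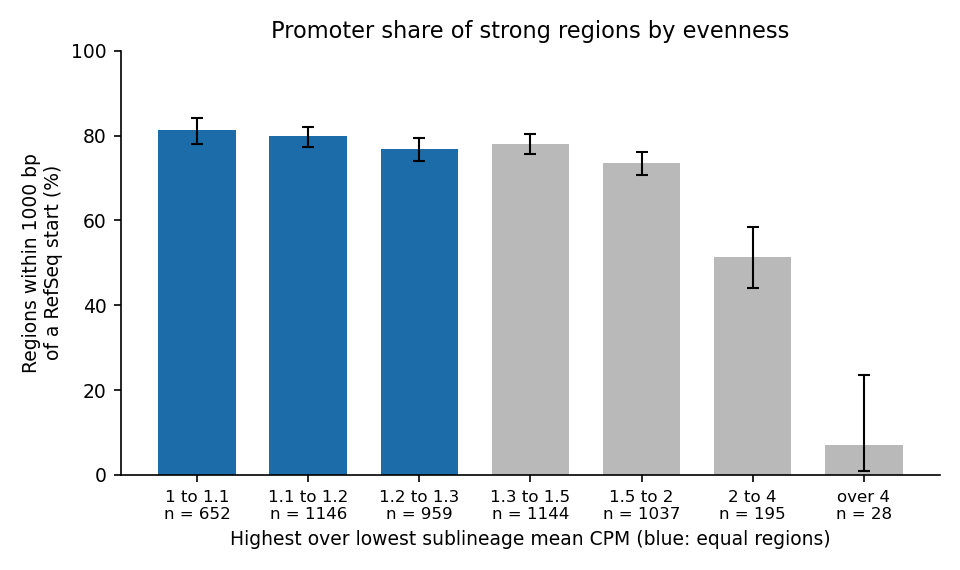
Share of strong regions within 1000 bp of a RefSeq start (y axis, percent, with exact binomial 95% intervals) by the ratio of the highest to the lowest sublineage mean CPM (x axis). Equal regions are blue; their bars lie between 76.8% and 81.3%, and the bar above a ratio of 4 is at 7.14%.

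A start on each strand was found in 446 (21.6%) of the members that contained a start, beside 22.6% in unequal strong regions and 9.30% in weaker ones. The starts of 2 or more genes lay in 457 members. One example is the region over the starts of Hnrnpa2b1 and Cbx3, the latter encoding a heterochromatin protein. The 576 members away from a promoter had a median distance of 16746 bp to the nearest listed start, and the 647 such unequal strong regions a median of 32111 bp. The median width was 907 bp in members, 958 bp in unequal strong regions and 445 bp in weaker regions.

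The sequence before starts in equal strong regions was rich in GC and CpG. Over the 250 bases before 2602 protein-coding starts, median GC was 62.4% and the median CpG count 19. Starts in unequal strong regions had 65.2% and 21, starts in weaker regions 59.6% and 15, and starts in no region 48.8% and 3. The SP/KLF letters occurred before 70.1% of starts in equal strong regions, 75.5% in unequal, 58.1% in weaker and 42.6% of all protein-coding starts. The ETS letters followed the same order at 18.1%, 19.2%, 13.2% and 8.98%. The NFY letters occurred before more starts in equal strong regions, 44.9%, than in unequal ones, 41.9%, or over all starts, 35.4%. Their share was 30.7% in weaker regions and 34.5% in no region. A YY1 motif was rare, at 1.27% in equal and 0.678% in unequal strong regions and 0.390% of all starts.

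Motifs of regulated and lineage factors were scarce before these starts. The TATA box letters occurred before 3.84% of starts in equal strong regions and 11.6% of all. The AP-1 letters TGANTCA occurred before 2.58% beside 6.13% of all, the GATA letters AGATAA before 3.34% beside 8.81%, and the T-box letters AGGTGTGA before 0.384% beside 0.997%. In unequal strong regions these shares were 3.20%, 3.20%, 3.44% and 0.629%, each also below that of all starts. These motifs hold more A and T than the SP/KLF and ETS letters, and the part of base composition in the difference was not tested.

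The 10 most accessible promoter members were of several kinds. H2-D1, H2-K1, Desi2, Dazap2, Zmym5, Fyco1, Zfp78 and Dnpep were among them. The others lay at Vmn2r29, a vomeronasal receptor gene, and at 4930526I15Rik with LOC108167694. The H2-D1 region, chr17:35262618-35263336, had 437 and 344 CPM in the iNKT1 libraries, 406 and 361 in iNKT2 and 363 and 306 in iNKT17. The H2-K1 region, chr17:34000001-34000740, over the start of the other classical MHC class I gene, had 319 and 252, 305 and 277, and 257 and 224 CPM. Library 1 exceeded library 2 in each sublineage at both. The ranges of the sublineages overlapped at H2-D1, while at H2-K1 both iNKT2 libraries lay above both iNKT17 libraries. The Dazap2 promoter, chr15:100614986-100616132, showed the same order of libraries at 289 and 231, 279 and 232, and 262 and 216 CPM.

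Some of the highest members were unlike ordinary promoters. Of the 10 highest, 4 lay in a cluster of 6 members near the distal end of chromosome X, between 169986644 and 170010212, which held 1.68% of the summed mean CPM of all members. The highest, chrX:169997890-169998522, had 1511 and 1279 CPM in iNKT1, 1639 and 1529 in iNKT2 and 1669 and 1312 in iNKT17. On chromosome 1, the Desi2 promoter and a region 7173 bp from the nearest listed start had nearly the same value in every library. The Desi2 region, chr1:178187236-178188484, had 317 and 360, 249 and 312, and 271 and 336 CPM, and the other, chr1:177982865-177984225, had 312 and 355, 249 and 311, and 271 and 338 CPM. Reads shared between near-identical sequences could give such values, and this was not tested.

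Equality of the means did not require equality of the libraries. The sublineage means of a member differed by a median factor of 1.17, while its 6 libraries spanned a median factor of 1.36, and only 882 members (31.5%) kept all 6 libraries within 1.3. The widest span, 4.45 times, was at a region near Cldn34d, chrX:76598516-76599168, with 476 and 107 CPM in iNKT2 and 418 and 165 in iNKT17, but 264 and 238 in iNKT1. It was 1 of 3 members with a sublineage whose libraries differed more than 2 times. The 3 members closest to the limit had a ratio that rounds to 1.3: a region near Pitpnm1 with means of 42.0, 54.5 and 50.3 CPM in iNKT1, iNKT2 and iNKT17, the shared promoter of Cir1 and Scrn3 with 63.3, 48.7 and 50.2, and a region near Gm51809 with 54.3, 49.6 and 41.8. Just outside it lay the Katnal1 promoter with 72.6, 55.9 and 56.2, a region near Melk with 97.2, 74.8 and 81.2, and the Gphn promoter with 53.9, 58.1 and 70.0.

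iNKT1 tended to be the highest sublineage. Its mean was the highest in 57.7% of members, with iNKT2 in 26.9% and iNKT17 in 15.5%. In unequal strong regions iNKT1 was the highest in 87.4%. The median log2 ratio of iNKT2 to iNKT1 was -0.09 in members, -0.26 in all strong regions and 0.23 in all regions up to the width limit. For iNKT17 against iNKT1 the medians were -0.10, -0.22 and 0.24. TMM factors ran from 0.892 to 1.12, and with them the rule kept 1746 regions, of which 1649 were among the 2803.

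Whether a strong region was equal went with its chromosome and with differences between libraries of 1 sublineage. On chromosome 11, 391 of the strong regions were equal and 124 were not, an equal share of 75.9%. The share was 70.8% on chromosome 7 and 69.2% on chromosome 19, but 34.9% on chromosome 1, 34.2% on chromosome 6 and 32.0% on chromosome 16. With TMM scaling each of these shares was lower, and chromosome 11 was again the highest of them and 16 the lowest, at 66.9% on 11, 54.8% on 19, 48.5% on 7, 14.8% on 1, 12.7% on 6 and 10.7% on 16.

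On chromosome 11, strong regions had a median log2 ratio of library 1 to library 2 of 0.32 in iNKT1, 0.24 in iNKT2 and 0.33 in iNKT17. On chromosome 16 the medians were -0.16, -0.15 and -0.24. Between sublineages, the median log2 ratio of iNKT2 to iNKT1 was 0.02 on chromosome 11 and -0.49 on chromosome 16. Over all chromosomes, library 1 was above library 2 in 74.7% of members in iNKT1, 67.5% in iNKT2 and 67.7% in iNKT17, but in 23.8%, 34.5% and 21.3% of unequal strong regions. Equal and unequal strong regions thus differed in the order of the libraries of 1 sublineage, and the part of these library differences in the choice of members was not tested.

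**Figure D2:**
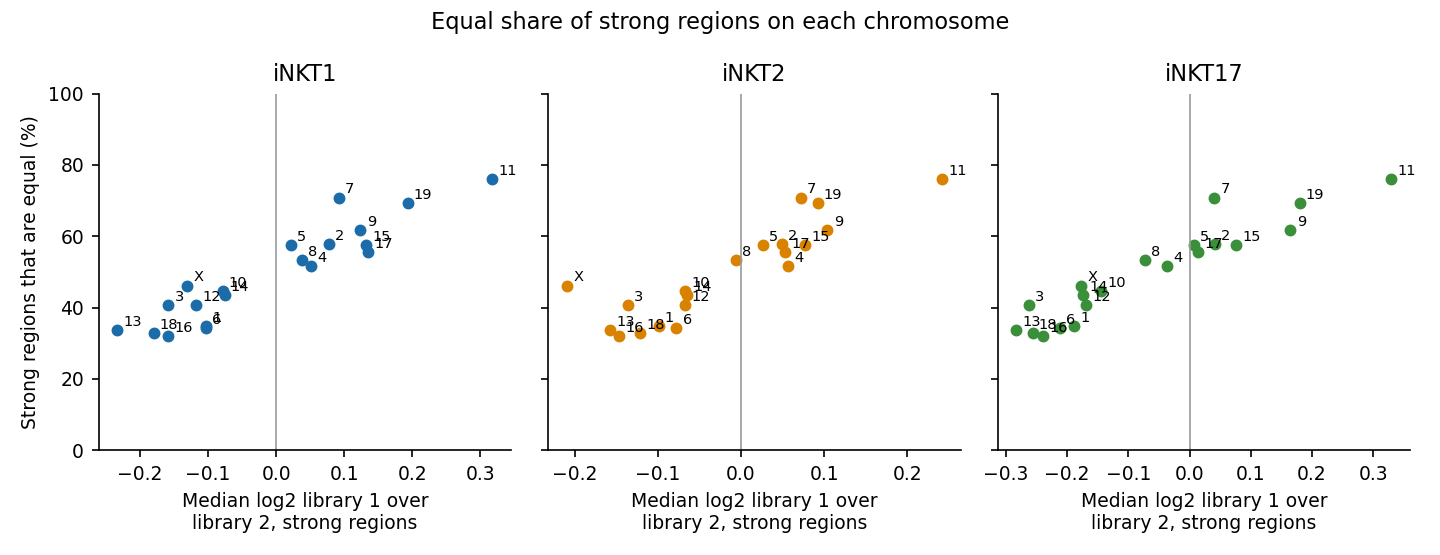
Share of strong regions that were equal (y axis, percent) on each chromosome except Y against the median log2 ratio of library 1 to library 2 over the strong regions of that chromosome (x axis), 1 panel per sublineage and 1 numbered point per chromosome. Chromosome 11, at 75.9%, lies highest and farthest to the right in the 3 panels, and the 5 chromosomes with the lowest shares (16, 18, 13, 6 and 1) have a median below 0 in each panel.

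Protein-coding genes at these promoters were mostly expressed. RNA was not used to choose the regions. Of protein-coding genes with a member within 1000 bp of a start and matched to the RNA tables, 93.2% had a mean of at least 1 CPM in iNKT1, 94.5% in iNKT2 and 90.1% in iNKT17. In conventional T cells before transplantation the shares were 96.7% in CD4 and 96.6% in CD8. Over all protein-coding genes with a RefSeq start they were 47.5%, 49.3%, 45.3%, 54.4% and 54.0%. Genes with an unequal strong region at the promoter were close to the members, at 92.5%, 93.6%, 88.6%, 96.4% and 96.6%, and genes with only weaker regions there were at 66.5%, 69.9%, 63.6%, 75.3% and 74.9%. Of matched long non-coding RNA genes with a member at the promoter, 31.4% reached 1 CPM in iNKT1, 35.5% in iNKT2 and 25.4% in iNKT17. Over all matched long non-coding RNA genes with a RefSeq start the shares were 6.78%, 7.35% and 5.09%.

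Marker RNA was checked against the labels. The summed CPM of 6 iNKT1 markers was 3035 and 2918 in iNKT1 and at most 792 elsewhere. Klrb1c went against this, with 329.6 and 239.2 CPM in iNKT1 and 509.3 and 443.4 in iNKT17, whereas the iNKT1 factor Tbx21 had 302.4 and 302 CPM in iNKT1 and at most 20.1 elsewhere. Of the iNKT17 markers, Il23r, a subunit of the IL-23 receptor, had 637.8 and 517.5 CPM in iNKT17 and at most 0.207 elsewhere. The 6 iNKT2 markers summed to 2599 and 1959 in iNKT2, but also to 2146 and 2351 in iNKT17, beside 329 and 377.5 in iNKT1. Of these, Gata3 did not set iNKT2 apart, with 157.9 and 154.4 CPM in iNKT2. It had 123.8 and 223 CPM in iNKT1 and 156.4 and 230 in iNKT17. The other iNKT2 markers were higher in both iNKT2 libraries than in both iNKT1 libraries. The 3 CD3 genes summed to 1693 to 1939 CPM, and the B cell gene Ms4a1 was at 0 in every library. The 3 stromal markers summed to 32.8 and 29.2 CPM in iNKT17, 1.87 and 18.9 in iNKT1 and at most 0.0369 in iNKT2, with Pdgfra at 0 in every library. The highest sum was 13.9 for 3 myeloid and 7.55 for 4 immature thymocyte markers, with Csf1r, Rag2 and Dntt at 0 in every library. The part of such cells in RNA differences was not tested. ATAC library totals ran from 13299586 to 42964216, of which members held 20.1% to 23.3%, and RNA totals from 26811373 to 33688697. The lowest count of any member in any library was 393.

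Among gene lists of basic functions, the spliceosome had the most equal promoters. The lists of basic functions, except cohesin and CTCF, were mostly built from families of gene symbols. A gene could thus enter by its name alone, such as Eif2ak1 among the translation factors and Psmc3ip in the proteasome list. The lists are compared over their RNA-tested genes, and 2247 of all 8500 such protein-coding genes (26.4%) had an equal and 1742 (20.5%) an unequal strong region at the promoter. For 58 genes of the spliceosome, the machine that removes introns, 37 (63.8%) were equal and 6 (10.3%) unequal. They included Hnrnpa1, Hnrnpa2b1, Hnrnpc, Hnrnpf, Srsf1 to Srsf6, Sf3b1 and Prpf8. The Hnrnpa2b1 region had 137 and 148 CPM in iNKT1, 137 and 131 in iNKT2 and 126 and 136 in iNKT17. The Srsf2 region had 137 and 101, 147 and 120, and 140 and 97.5. The first varied little between any of the 6 libraries, while at the second library 1 lay above library 2 in every sublineage.

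The split between equal and unequal depended on the scaling, and the total of both did so less. With TMM scaling 21 spliceosome genes were equal and 21 unequal, beside 16.2% and 29.3% of all tested genes. Cytosolic ribosomal proteins had 27 equal and 7 unequal of 60, Rps19, Rpl27 and Rplp0 among the equal. The respiratory chain had 23 and 8 of 65, and the proteasome, which degrades tagged proteins, 13 and 6 of 38. With TMM scaling these became 18 and 13, 14 and 14, and 11 and 8. Translation factors had 19 equal and 15 unequal of 50, and 13 and 21 with TMM scaling. The Eif4a1 promoter, of an RNA helicase of translation initiation, had 209 and 165 CPM in iNKT1, 227 and 198 in iNKT2 and 206 and 151 in iNKT17.

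General transcription was close to the background, with 19 equal (27.5%) and 14 unequal of 69, among the equal Polr2a, the largest subunit of RNA polymerase II, with 176 and 133, 186 and 154, and 200 and 145 CPM. Histone and chromatin enzymes had 17 equal (34.7%, near the proteasome's 34.2%) and 13 unequal of 49, with Ep300, Brd2 and Kmt2a equal. With TMM scaling they had 10 equal (20.4%, below the proteasome's 28.95%) and 19 unequal, and general transcription had 13 and 20. Of 7 cohesin and CTCF genes, Ctcf and Smc3 were equal and 4 unequal. The Ctcf region had 113 and 112, 113 and 108, and 136 and 122 CPM.

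T cell and activation genes had few equal promoters. Of 22 genes of T cell receptor signalling, Csk, Nfatc3 and Ptpn22 were equal, 4 unequal and 14 had only weaker regions. Csk is a kinase that inhibits Lck, and its region had 57.8 and 47.4, 55.0 and 47.8, and 61.7 and 49.2 CPM. Of 26 lymphoid transcription factors, Cbfb, Lef1, Stat3, Stat5a and Tcf3 were equal and 8 unequal, Runx1 and Klf2 among these. Immediate early genes, which respond within minutes to stimulation, had 2 equal, Jund and Nr4a1, and 8 unequal of 14. None of 12 type 1, 10 type 2 and 8 type 17 genes had a strong region at the promoter. The rule asks for a high level in every sublineage, so a gene open in 1 of them could not enter.

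None of 10 lineage genes with regions assigned to them had an equal or unequal strong region. They were Ccr6, Gata3, Gzmb, Ifng, Il17a, Il17rb, Il23r, Il4, Stat4 and Tbx21. The largest ratio between sublineage means in a region of each ran from 10.5 for Il4 to 274 for Il17a, with 40.6 for Tbx21, which encodes T-bet, and 12.7 for Gata3. Several of these rest on very low means. The ratio was 0.507 CPM in iNKT1 against 5.33 in iNKT2 for Il4, and 0.280 against 3.55 for Gata3. For Il17a it was 0.113 in iNKT1 against 30.8 in iNKT17, and for Tbx21 97.9 in iNKT1 against 2.41 in iNKT17. A region at the Gata3 promoter was nearly equal, at 24.8, 23.4 and 25.7 CPM.

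**Figure D3:**
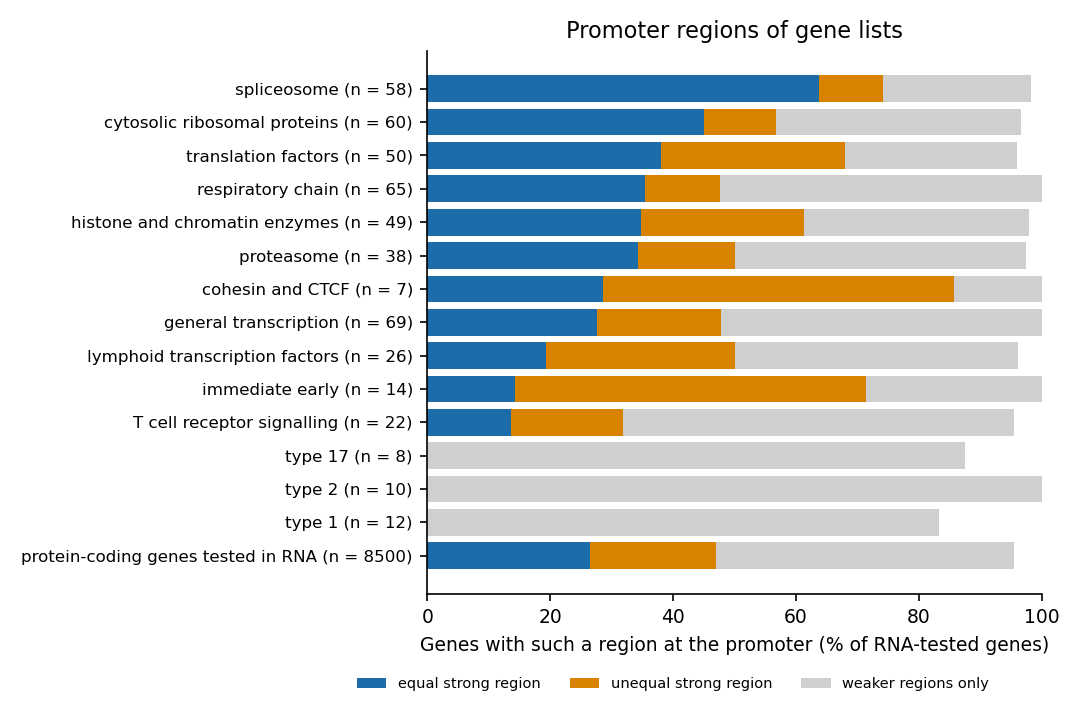
Share of RNA-tested genes of each list (x axis, percent) with an equal strong region at the promoter (blue), else an unequal strong region (orange), else weaker regions (grey); n is the number of genes. The spliceosome has the longest blue bar, 63.8% beside 26.4% of all tested protein-coding genes, and the type 1, type 2 and type 17 lists have none.

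The called share of genes near members was compared, as a description, with that of all genes tested. A gene was called when its adjusted p was under 0.05 by the quasi-likelihood test of edgeR, adjusted by Benjamini-Hochberg over 12372 genes. The nearest genes of the members gave 2452 tested genes. Between iNKT2 and iNKT1, 16 were called (0.652%), beside a background of 1.29% of all genes. Of these, 6 were higher in iNKT2, beside 0.533% of all genes, and 10 lower, beside 0.752%. Between iNKT17 and iNKT1, 28 were called (1.14%), beside 2.00% of all genes, with 14 higher in iNKT17 (background 0.986%) and 14 lower (background 1.01%). Between iNKT17 and iNKT2, 4 were called (0.163%), beside 0.711% of all genes, with 2 higher in iNKT17 (background 0.436%) and 2 lower (background 0.275%). The comparisons share libraries and are not independent.

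Genes were also grouped by the region at their promoter. Of 2309 genes with an equal strong region within 1000 bp of a start, 0.476%, 0.909% and 0.130% were called in the same 3 comparisons. The shares were 0.948%, 1.00% and 0.223% of 1794 genes with an unequal strong region, and 1.98%, 3.12% and 1.3% of 4235 with only weaker regions. Among genes whose mean log2 CPM reached 4, they were 0.578%, 1.1% and 0.158% with an equal region and 1.91%, 2.96% and 1.05% of all genes. The median size of the log2 fold change was 0.54, 0.63 and 0.59 with an equal region, beside 0.78, 0.93 and 0.83 over all genes. At an unadjusted p under 0.05, 5.54%, 7.75% and 6.02% passed with an equal region, beside 7.56%, 9.92% and 7.86% of all genes. DESeq2 called far more genes, and its shares were 4.29%, 8.44% and 6.76% with an equal region beside 8.16%, 13.2% and 10.1% of all genes. These shares were not tested against each other.

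The shares and directions depended on single RNA libraries. In 31 of 33 pairs of a setting and a comparison, a smaller share of genes with an equal promoter region was called than of all genes. The exceptions were the fits without iNKT17 library 1, where 7.64% against 7.12% were called between iNKT17 and iNKT1, and 6.26% against 5.69% between iNKT17 and iNKT2. Genes with an equal region had a smaller share than those with an unequal one in 32 of 33, the exception being 2.29% against 2.08% between iNKT17 and iNKT1 without iNKT1 library 1. For the nearest genes of members, the shares without iNKT17 library 1 were 8.00% and 6.43% in the comparisons of iNKT17 with iNKT1 and with iNKT2, also above all genes. The 14 higher and 14 lower calls between iNKT17 and iNKT1 became 39 and 164 without iNKT17 library 1 and 55 and 8 without iNKT1 library 1. Between iNKT17 and iNKT2, 2 and 2 became 25 and 138 without iNKT17 library 1, and between iNKT2 and iNKT1, 6 and 10 became 34 and 12 without iNKT1 library 1 and 3 and 25 without iNKT2 library 2.

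**Figure D4:**
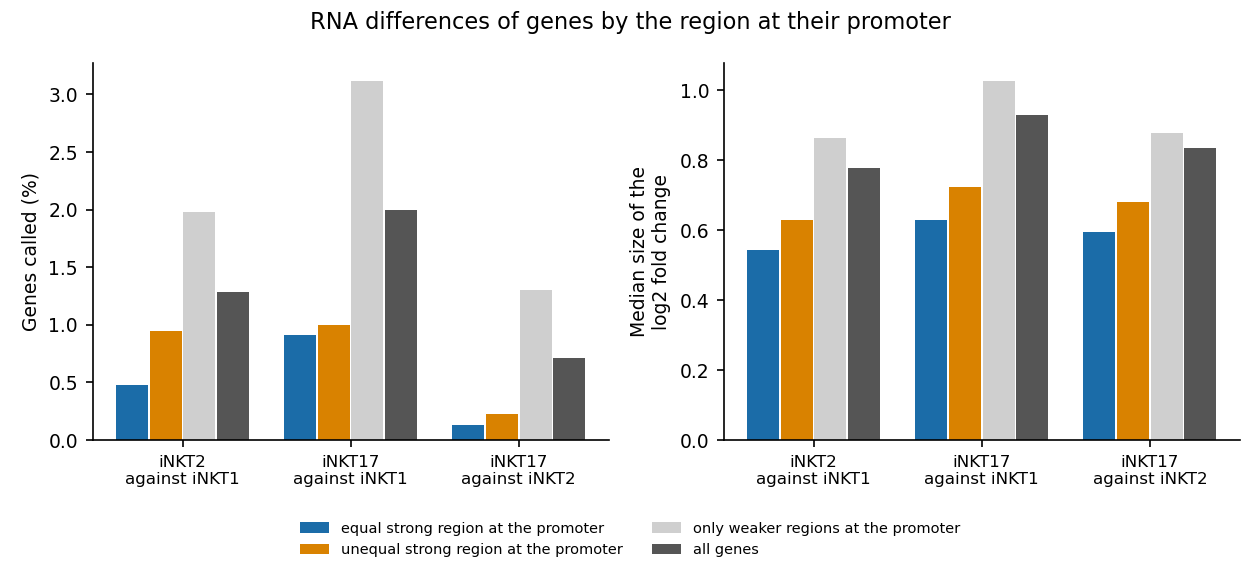
Share of tested genes called by edgeR (left, percent) and median size of the log2 fold change (right) for genes grouped by the region at their promoter, in 3 comparisons. In each comparison the blue bar, genes with an equal strong region, is lowest, for example 0.476% beside 1.29% of all genes between iNKT2 and iNKT1.

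Some genes nevertheless had an equally open promoter and RNA that differed between sublineages, and iNKT1 stood apart at several. Ptpn22 RNA was 394 and 751 CPM in iNKT1, 111 and 85.8 in iNKT2 and 162 and 92.4 in iNKT17. Its promoter region, chr3:103859323-103860562, had 90.03 and 87.7, 63.7 and 79.2, and 77.2 and 83.1 CPM. The RNA groups of iNKT2 and iNKT17 overlapped and both lay below iNKT1. Ptpn22 RNA fell by 2.54 on the log2 scale from iNKT1 to iNKT2 (SE 0.424, adjusted p = 0.018, edgeR), and the log2 fold change of iNKT17 over iNKT1 was -2.17 (SE 0.418, adjusted p = 0.031, edgeR). Without iNKT1 library 2 the adjusted p was 0.052 and 0.19, and with only iNKT17 and iNKT1 fitted it was 0.099.

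Prex1 and Wnk1 were also lower in iNKT2. Prex1, a guanine exchange factor for Rac, had 845 and 631 CPM in iNKT1, 243 and 173 in iNKT2 and 546 and 562 in iNKT17, a fall of 1.83 in iNKT2 in log2 (SE 0.271, adjusted p = 0.010, edgeR). Its promoter had 106 and 79.1, 99.5 and 72.6, and 94.7 and 72.9 CPM, so that the libraries of a sublineage differed more than the sublineages. Wnk1, a kinase of ion transport, had 530 and 638, 212 and 209, and 196 and 264 CPM of RNA. Its promoter had 71.0 and 67.6, 54.2 and 57.2, and 58.4 and 62.3 CPM, with iNKT1 highest as in RNA. Wnk1 RNA fell by 1.47 in iNKT2 (SE 0.276, adjusted p = 0.035, edgeR) and by 1.34 in iNKT17 (SE 0.275, adjusted p = 0.041, edgeR). The iNKT2 call was lost without iNKT1 library 2 (adjusted p = 0.23) and without iNKT2 library 2 (adjusted p = 0.091).

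Dgkz and Lef1 were higher in iNKT2. Dgkz, a kinase that removes diacylglycerol and so dampens T cell receptor signalling, had 415 and 348 CPM in iNKT1, 1176 and 1207 in iNKT2 and 622 and 610 in iNKT17. It rose by 1.64 in iNKT2 over iNKT1 (SE 0.206, adjusted p = 0.0040, edgeR), with no overlap of libraries. The region at 1 of its starts, chr2:91963417-91964032, had 60.4 and 61.1, 53.6 and 41.8, and 52.8 and 50.0 CPM, with iNKT1 highest. Lef1, a transcription factor of early T cells, had 10.1 and 27.7, 152 and 236, and 108 and 71.8 CPM of RNA. It rose by 3.36 in iNKT2 (SE 0.629, adjusted p = 0.035), and without iNKT2 library 2 the adjusted p was 0.073. The Lef1 member covers 1 of several listed starts, at chr3:131111893-131112821, and its accessibility was 42.4 and 52.5, 53.4 and 69.1, and 51.8 and 65.4 CPM.

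Another group of genes with an equal promoter region differed in RNA in iNKT17 cells. Pi4k2a RNA was 50.5 and 48.3 CPM in iNKT1, 43.3 and 48.7 in iNKT2 and 561 and 299 in iNKT17. It rose by 3.12 over iNKT1 (SE 0.414, adjusted p = 0.0036, edgeR) and by 3.22 over iNKT2 (SE 0.416, adjusted p = 0.0080, edgeR). Its promoter, chr19:42089940-42090848, was lowest in iNKT17, with 97.6 and 89.8, 81.5 and 86.6, and 77.5 and 73.5 CPM. Zfp36l1, which binds AU-rich RNA and promotes its decay, had 249 and 221, 221 and 293, and 917 and 782 CPM of RNA. It rose by 1.85 over iNKT1 (SE 0.260, adjusted p = 0.0049) and by 1.72 over iNKT2 (SE 0.259, adjusted p = 0.019). The last call was lost when only those groups were fitted (adjusted p = 0.087, edgeR). The Zfp36l1 promoter had 62.5 and 64.5, 76.3 and 63.9, and 79.85 and 79.05 CPM, with iNKT17 highest as in RNA.

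Rexo2, a mitochondrial oligoribonuclease, had 52.3 and 64.6 CPM in iNKT1, 154 and 132 in iNKT2 and 356 and 425 in iNKT17. It rose by 2.74 in iNKT17 over iNKT1 (SE 0.342, adjusted p = 0.0025, edgeR), while its promoter stayed at 70.9 and 70.4, 73.7 and 66.6, and 72.1 and 63.3 CPM. Rarg, a retinoic acid receptor, rose by 2.93 (SE 0.444, adjusted p = 0.0076, edgeR), from 82.5 and 35.7 CPM in iNKT1 to 467 and 434 in iNKT17, with 149 and 209 in iNKT2. The Rarg region had 52.6 and 46.4, 49.9 and 40.6, and 54.0 and 47.45 CPM. The Slc43a2 region had 52.9 and 39.7, 58.8 and 48.3, and 60.7 and 44.8 CPM. Slc43a2, an amino acid transporter, rose by 2.26 (SE 0.461, adjusted p = 0.040) and lost the call without iNKT1 library 2 (adjusted p = 0.15), with a replicate block (adjusted p = 0.056) and with only those groups fitted (adjusted p = 0.11).

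Near-silent genes were found at equal promoters too. Catsperd, which encodes a subunit of the sperm calcium channel, had 0.0655 and 0 CPM in iNKT1, 105 and 76.4 in iNKT2 and 50.0 and 40.5 in iNKT17, and was called higher in iNKT2 (adjusted p = 0.0068) and iNKT17 (adjusted p = 0.0063) by edgeR, the latter lost with only iNKT17 and iNKT1 fitted (adjusted p = 0.26). Its promoter region had 66.7 and 58.0, 59.3 and 55.6, and 52.85 and 47.45 CPM, with iNKT1 highest. That region also covers the start of Lonp1, a mitochondrial protease gene, on the other strand. Hip1, which encodes a clathrin-binding protein, had 84.0 and 93.1 CPM in iNKT1, 11 and 0.724 in iNKT2 and 0.0322 and 0.0388 in iNKT17. Entpd1 (CD39), which degrades extracellular ATP, had 75.3 and 84.3, 32.2 and 47.9, and 0.547 and 0.620 CPM. It fell by 7.09 in iNKT17 against iNKT1 (SE 1.21, adjusted p = 0.015). The calls of Hip1 and Entpd1 in iNKT17 were lost without iNKT1 library 2, at adjusted p = 0.31 and 0.097, and that of Hip1 also without iNKT1 library 1 (adjusted p = 0.10) and with a replicate block (adjusted p = 0.064). No fold is given for Catsperd and Hip1, whose lowest group held at most a few reads. The Hip1 promoter had 107 and 95.8, 79.7 and 82.1, and 94.2 and 84.2 CPM. The Entpd1 promoter had 56.8 and 57.4, 42.7 and 47.1, and 44.2 and 44.9 CPM, with iNKT1 highest as in RNA.

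**Figure D5:**
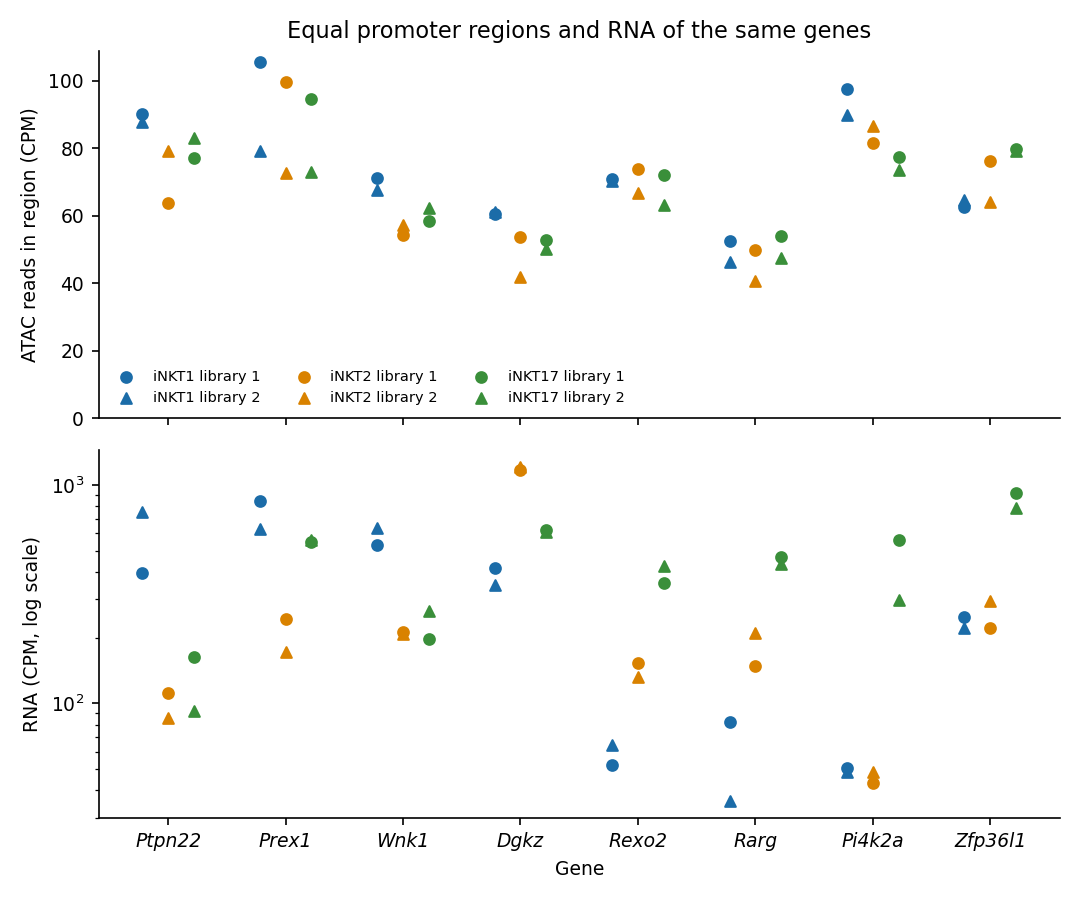
Accessibility (upper panel, CPM, linear axis from 0) and RNA (lower panel, CPM, log axis) in each library of 8 genes with an equal region within 1000 bp of a listed start and a called RNA difference; circles are library 1 and triangles library 2. Sublineage means of accessibility differ by at most 1.3 times in each gene, as the rule requires, while RNA of Pi4k2a runs from 43.3 to 561 CPM.

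H2-D1 RNA was lower in iNKT17 than in iNKT1. It was 4283 and 4400 CPM in iNKT1, 2970 and 3607 in iNKT2 and 2360 and 2348 in iNKT17, a fall of 0.88 in log2 from iNKT1 to iNKT17 (SE 0.145, adjusted p = 0.012, edgeR). H2-K1, chosen after its values were seen, fell by 0.95 (SE 0.190, adjusted p = 0.038, edgeR) in the same comparison. Neither was called between iNKT17 and iNKT2 (adjusted p = 0.32 for H2-D1 and 0.071 for H2-K1, edgeR). Reads of these similar genes may be split between copies in the counting, so their levels carry that uncertainty.

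The other genes with the highest RNA had no call by edgeR in any comparison. Eef2, which moves the ribosome along the message, had 3651 and 3755 CPM in iNKT1, 3970 and 4514 in iNKT2 and 3251 and 3066 in iNKT17. Ddx5, Rack1, Rps3 and Srrm2 likewise had no call. None of the 37 spliceosome genes with an equal promoter was called by edgeR in any comparison. At an unadjusted p under 0.05, 3 passed between iNKT2 and iNKT1, 4 between iNKT17 and iNKT1 and 3 between iNKT17 and iNKT2, and DESeq2 called 3, 2 and 4. Over all genes 1.29%, 2.00% and 0.711% were called and 7.56%, 9.92% and 7.86% passed unadjusted, so these counts are near the background and say nothing particular of the spliceosome. Their median log2 fold changes were 0.07, 0.03 and -0.26, beside 0.08, 0.00 and -0.04 over all equal-promoter genes tested. Hnrnpa2b1 RNA was 1221 and 1132, 1116 and 1246, and 1141 and 1306 CPM.

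Members away from listed promoters lay near some genes with large RNA differences. Some genes have no listed start, so such a member may lie at the start of an unlisted gene. This was not checked for the members assigned to Ahnak, Ripor2, Junb, Tcf7, Gdpd3, Lgals3 and Arl4d. Ahnak, which encodes a large scaffold protein, had 1972 and 1611 CPM in iNKT1, 428 and 319 in iNKT2 and 251 and 225 in iNKT17. It fell by 2.26 in iNKT2 (SE 0.236, adjusted p = 0.0017) and by 2.91 in iNKT17 (SE 0.242, adjusted p = 0.00025). The member, 4329 bp from its start, had nearly the same mean in each sublineage, 46.5, 46.4 and 46.8 CPM. Ripor2, whose member lay 122561 bp from the start, fell by 2.42 in iNKT2 and by 2.08 in iNKT17 (adjusted p = 0.0070 and 0.010), and Junb, a subunit of AP-1 with a member 1894 bp away, fell by 1.67 and 1.21 (adjusted p = 0.013 and 0.049). The Junb promoter itself was an unequal strong region.

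Tcf7, which encodes TCF-1, rose by 1.21 in iNKT2 (SE 0.220, adjusted p = 0.031) and by 1.45 in iNKT17 (SE 0.222, adjusted p = 0.0078), and its member lay 16221 bp from the start. The iNKT2 call was lost without iNKT1 library 1 (adjusted p = 0.15) or iNKT2 library 2 (adjusted p = 0.055). Gdpd3 rose by 1.16 in iNKT2 (adjusted p = 0.039), a call lost without either iNKT1 library, at adjusted p = 0.11 and 0.089. Lgals3 (galectin-3) was 75.1 and 23.8 CPM in iNKT1, 358 and 428 in iNKT2 and 1822 and 1897 in iNKT17, and rose by 5.23 in iNKT17 (SE 0.571, adjusted p = 0.0054). Its call was lost without iNKT17 library 1 (adjusted p = 0.097) or 2 (0.20) and without iNKT2 library 1 (0.14) or 2 (0.13). Arl4d had 109 and 50.9 CPM in iNKT1, 26 and 10.1 in iNKT2 and 0.0322 and 0 in iNKT17, and its call in iNKT17 (adjusted p = 0.020) was lost without iNKT1 library 1 (adjusted p = 0.20). Beside Pi4k2a and Zfp36l1, the calls between iNKT17 and iNKT2 were Rpsa, a ribosomal protein gene, and AW112010, both lower in iNKT17 and named after their values were seen.

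Genes with an equal promoter and a called RNA difference also had other regions assigned to them. Of 27 such genes that were also the nearest gene of a member, 16 (59.3%) had another region whose sublineage means differed by at least 2 times with 1 mean of at least 5 CPM, beside 32.7% of 2241 genes with no call. The called genes had a median of 5 other regions and the rest a median of 1. Per region the shares were close, with 30.8% of 133 other regions of called genes and 30.5% of 4362 of the rest differing by at least 2 times.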

How the data were processed

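The deposited tables hold raw counts per region for ATAC-seq and per gene for RNA-seq, per the file headers. The iNKT RNA library kit was TruSeq stranded mRNA, per the labels' protocols. The submitters' processing notes list STAR 2.5.4, Bowtie2, MACS2, bedtools 2.27.1, HOMER 4.9.1, kallisto and DESeq2 1.22.2, and name mm10 and GRCm38, without tying a tool to a table. Use of strand in counting, how regions were merged and how reads with several matches were handled are not given in the sources used here.

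Regions were scaled by column total and chosen as described in the report. Starts, and the sequences shown, came from RefSeq (GRCm38.p6, 32851 starts of 27025 genes, none on chromosome 18). Some genes on other chromosomes, several lineage genes among them, also had no listed start, so a promoter of such a gene was not recognised. A region's genes are those whose start it contains or, failing that, the nearest start. Promoter means within 1000 bp of a start. Of 2993 nearest genes, 2772 matched a gene ID of the RNA table and 2452 passed the filter on low counts. RNA counts were tested with edgeR 4.0.16 in R 4.3.3 (filterByExpr, TMM, robust quasi-likelihood, 1 term per group over the 6 iNKT libraries) and checked on simulated data. The common biological coefficient of variation by edgeR was 1.3. DESeq2 1.42.0 was an alternative. Per comparison, the genes named were the 6 called near genes that rose most and the 6 that fell most, whose mean log2 CPM reached 4, with no overlap between libraries, leaving out predicted, pseudo-, ribosomal, mitochondrial, receptor segment and sex-linked marker genes, plus the 6 with the highest RNA, the 4 most accessible of each list and the lineage genes with a member. The 10 highest members, the 6 highest away from a promoter and 3 on either side of the limit were the regions for naming; the highest promoter members were added after seeing the data. Members and lists were chosen with earlier results of these data known. The 3 conventional CD8 libraries share a column name and enter only as a mean. Single-cell libraries, CD4-sorted iNKT1 libraries and transplanted T cells were not analysed here.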

Additional observations from a re-analysis of the deposited data

How the results depend on the processing

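The number of members fell to 1816 with a ratio of at most 1.2, to 1456 with a floor of 60 CPM and to 1746 with TMM-scaled library sizes. It was between 2796 and 3994 with a ratio of 1.5, a floor of 30 CPM, other width limits or, an alternative chosen after seeing the data, totals without rows wider than 10000 bp. Leaving out 1 ATAC library gave 2376 to 2890 members. The promoter share ran from 76.4% with a floor of 30 CPM to 82.0% with a floor of 60 CPM, and between 79.0% and 80.2% when 1 library was left out. Called genes near members rose with DESeq2 to 121 (iNKT2 against iNKT1), 228 (iNKT17 against iNKT1) and 180 (iNKT17 against iNKT2). These were 4.9%, 9.3% and 7.4% of the tested near genes, beside 8.16%, 13.2% and 10.1% of all genes. Without the filter on low counts they were 53, 62 and 36, or 2.06%, 2.41% and 1.40%, beside 2.51%, 3.16% and 1.91% of all genes. With only the compared groups fitted, 17 (0.726%) were called between iNKT17 and iNKT1, beside 1.73% of all genes. With members chosen by TMM scaling, 1 of 1532 was called between iNKT17 and iNKT2, beside 0.711% of all genes. Leaving out 1 RNA library gave 14 to 50, 14 to 203 and 11 to 163 calls. The counts of 203 and 163 came without iNKT17 library 1. Between iNKT2 and iNKT1, 46 were called without iNKT1 library 1, 27 or 28 without iNKT2 library 1 or 2, and 45 or 50 without iNKT17 library 1 or 2. Between iNKT17 and iNKT1, 63 or 14 were called without iNKT1 library 1 or 2, 48 without iNKT2 library 1 and 58 without iNKT17 library 2. Between iNKT17 and iNKT2, 12 or 15 were called without iNKT1 library 1 or 2, 11 or 18 without iNKT2 library 1 or 2 and 28 without iNKT17 library 2. Whenever 1 RNA library was left out, the share called over all genes moved in the same direction as that of near genes. The cause of these changes was not tested. The labels do not say that equal library numbers mark a shared source. In RNA, deviations of same-numbered libraries correlated at -0.06, 0.05 and -0.02. In ATAC-seq, the median log2 ratio of library 1 to library 2 over the strong regions of a chromosome was compared between sublineages. It had the same sign in iNKT1, iNKT2 and iNKT17 on each chromosome except 4 and 8. The median log2 ratios were 0.32, 0.24 and 0.33 on chromosome 11 and -0.16, -0.15 and -0.24 on chromosome 16. With a replicate block, 18, 24 and 6 near genes were called. None of the 25 pairs of a gene and a comparison that were followed over the alternatives (the called genes of the naming rule) changed direction. Other genes and comparisons in the text were not followed. With 2 libraries a group, members cannot be separated from library effects.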

Other observations

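Equal strong regions were unevenly spread over the chromosomes. Chromosome 11 held 391 members, 13.9% of all, and 8.20% of all regions up to the width limit. Chromosome 7 held 10.3% of members and 6.39% of regions, and chromosome 19 held 4.82% and 3.17%. Chromosome X held 30 members and chromosome Y none of its 10 regions.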
